A study of Mus musculus with 12 samples.

Results

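Foxo1 and 7 further forkhead transcription factors were followed in BL#19, a murine Burkitt lymphoma cell line edited with CRISPR/Cas9. The members were all probe sets that the array's annotation assigns to Foxo1, Foxo3, Foxo4, Foxp1, Foxk1, Foxk2, Foxn3 or Foxj3 alone. They were 8 of 18194 genes named on the array, with 32 of its 45101 probe sets, and 1 more probe set, assigned to Foxo3 together with another gene, was left out. After probe sets near background were removed, 28 of the 32 were tested, with at least 1 for each of the 8 genes, among 23752 probe sets in all. The question was whether another FOXO, FOXP or FOXK gene is higher when Foxo1 is lost.

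RNA was measured on 12 Affymetrix arrays, 3 for each of 4 genotypes. All cells were of the same line, whose 2 Foxo1 alleles are a wild-type one (wt) and one that carries T24P (mt), which replaces a threonine that the kinase AKT phosphorylates. The genotypes were wt-/mt- (neither allele intact), wt-/mt+ (T24P allele alone), wt+/mt- (wild-type allele alone) and wt+/mt+ (both alleles). No label tells if the 3 arrays of a genotype are different clones, different cultures or repeats of 1 RNA, so the p-values rest on a spread that may be technical, and a genotype may be 1 clone. One label field calls the samples germinal center B cells, and the others name the lymphoma line. All values are the authors' RMA expression values on the log2 scale, so 1 unit is a doubling, and levels are compared only within a probe set.

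FOXO proteins bind DNA through the forkhead domain and activate genes of quiescence, apoptosis, metabolism and lymphocyte homing. AKT, downstream of PI3K, phosphorylates them, and 14-3-3 proteins then hold them in the cytoplasm. In the germinal center, FOXO1 is known for its part in the dark zone program. Foxo3 and Foxo4 are the paralogs regulated in the same way. FOXP1 is a forkhead repressor needed for early B cell development, and FOXK1 and FOXK2 bring the SIN3 and BAP1 complexes to forkhead sites.

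The arrays carried a B cell profile. Of 8 B cell markers listed, 7 were on the array and all 7 lay above the array median on every array, with a mean log2 level of 10.57 to 11.01 on wt-/mt- arrays, 11.22 to 11.52 on wt-/mt+, 11.41 to 11.46 on wt+/mt- and 11.40 to 11.56 on wt+/mt+ arrays. The part of this lower B cell marker level of wt-/mt- in the results below was not tested. Of germinal center markers 5 of 6 and of plasma cell markers 4 of 5 also lay above the median on every array. Between wt-/mt- and wt+/mt+, germinal center markers moved both ways: Mef2b averaged 10.39 against 8.22 and Mybl1 8.73 against 10.81. Of the NK cell markers 3 of 3, of stromal markers 4 of 5, of myeloid markers 5 of 7, of erythroid markers 2 of 3 and of T cell markers 3 of 6 stayed below the filter. The myeloid markers Csf1r and Adgre1 and the erythroid marker Epor lay above the array median on all 12 arrays, with genotype means of 6.79 to 7.24. The 3 other T cell markers, Cd3e, Cd4 and Cd8a, lay above the array median on all 12 arrays, with genotype means of 6.40 to 6.93, near the array medians of 6.08 to 6.25. The mean level of the T cell list was 5.87 to 5.98 on wt-/mt- arrays, 5.74 to 5.85 on wt-/mt+, 5.89 to 6.01 on wt+/mt- and 5.71 to 5.84 on wt+/mt+ arrays. The spread between arrays was unequal: the wt-/mt- arrays had a median SD over tested probe sets of 0.27, the wt-/mt+ arrays 0.116, the wt+/mt- arrays 0.14 and the wt+/mt+ arrays 0.103, and the fit therefore gave each genotype a weight. Replicates 1 and 2 of wt+/mt- had a 3' to 5' actin signal difference of 2.17 and 1.71, against 1.06 to 1.29 on the 10 other arrays, a sign of lower RNA quality or shorter cDNA. Whether it contributes to a result of wt+/mt- was not tested beyond the values given below. The hybridization controls bioC, bioD and cre read lower on wt-/mt- and wt+/mt- arrays than on wt-/mt+ and wt+/mt+ arrays, without overlap. The ranges were 10.849 to 11.35 against 11.607 to 11.804 for bioC and 12.973 to 13.524 against 13.83 to 14.035 for bioD. For cre they were 14.95 to 15.088 against 15.198 to 15.253, and bioB overlapped. Another control, lys, split the same arrays the other way, at 7.302 to 8.178 on mt- arrays against 5.772 to 7.26 on mt+ arrays. The controls phe, dap and thr overlapped. These splits coincide with the T24P allele, and their part in comparisons of mt- with mt+ arrays was not tested.

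Promoter sequences are shown for the 2 genes that fell after loss of both alleles. Of the 8 genes, 6 had RefSeq entries (assembly GRCm38.p6) with 8 start sites among them, and Foxo4 and Foxk1 had none here. The 250 bases before each start were searched on both strands for the forkhead core TAAACA, whose reverse complement reads TGTTTA, and for the longer FOXO motif GTAAACA, whose reverse complement reads TGTTTAC and which contains the core. The core was found before all 3 Foxp1 starts, once or more each, and before none of the 5 starts of Foxo1, Foxo3, Foxk2, Foxn3 and Foxj3. Among 32851 mouse promoter windows of this length, 12% hold it. The longer motif was found before none of the 8 starts, and 3.17% of all windows hold it. Capitals mark the core, each sequence reads 5′ to 3′ on the gene's strand, and a match describes letters only, not binding.
Foxo1, chr3:52268087-52268336, plus strand: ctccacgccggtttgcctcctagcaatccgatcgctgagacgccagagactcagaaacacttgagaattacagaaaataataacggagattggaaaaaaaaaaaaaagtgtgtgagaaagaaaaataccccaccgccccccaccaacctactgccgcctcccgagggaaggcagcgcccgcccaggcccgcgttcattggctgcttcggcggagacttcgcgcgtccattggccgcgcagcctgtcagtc
Foxp1 start 1, chr6:99520994-99521243, minus strand: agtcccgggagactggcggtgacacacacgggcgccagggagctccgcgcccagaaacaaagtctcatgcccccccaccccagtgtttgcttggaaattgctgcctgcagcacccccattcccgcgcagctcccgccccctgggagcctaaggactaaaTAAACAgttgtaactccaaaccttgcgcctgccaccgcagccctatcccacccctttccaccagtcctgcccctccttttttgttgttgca
Foxp1 start 2, chr6:99266516-99266765, minus strand: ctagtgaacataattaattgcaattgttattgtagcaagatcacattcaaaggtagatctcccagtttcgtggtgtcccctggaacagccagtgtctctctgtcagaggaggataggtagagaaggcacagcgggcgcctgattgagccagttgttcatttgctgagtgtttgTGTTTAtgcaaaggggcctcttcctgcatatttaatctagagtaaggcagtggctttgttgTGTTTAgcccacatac
Foxp1 start 3, chr6:99028299-99028548, minus strand: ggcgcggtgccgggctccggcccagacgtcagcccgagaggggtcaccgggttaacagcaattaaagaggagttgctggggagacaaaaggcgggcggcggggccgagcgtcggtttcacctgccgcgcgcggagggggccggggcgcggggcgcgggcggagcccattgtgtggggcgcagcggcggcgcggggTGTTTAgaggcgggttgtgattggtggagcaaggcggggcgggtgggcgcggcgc

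Foxo1, the edited gene, was lower in wt-/mt- than in every other genotype and did not pass the test after loss of either allele alone. In bulk RNA, fewer cells with the transcript and less of it per cell cannot be told apart. Its probe set of highest mean, 1416983_s_at, read 10.23, 9.39 and 10.34 on the wt-/mt- arrays, 11.57, 11.16 and 11.64 on wt-/mt+, 12.10, 11.92 and 11.59 on wt+/mt- and 11.56, 11.63 and 11.72 on wt+/mt+ arrays. All 3 wt-/mt- arrays lay below the 9 others, and the second was the lowest. Probe set 1416981_at read 9.16, 8.43 and 9.33 in wt-/mt-, 10.43, 10.16 and 10.37 in wt-/mt+, 11.28, 10.72 and 10.44 in wt+/mt-, and 10.47, 10.57 and 10.48 in wt+/mt+. Probe set 1416982_at read 8.29, 7.29 and 8.77 in wt-/mt-, 9.84, 9.34 and 9.95 in wt-/mt+, 10.09, 9.93 and 9.71 in wt+/mt-, and 9.76, 9.90 and 9.90 in wt+/mt+. Both repeat the gap between wt-/mt- and the rest, but the 3 sets were designed from the same source sequence and are not independent. The remaining Foxo1 probe set, 1456529_at, stayed below the filter.

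The fall of Foxo1 in wt-/mt- against wt+/mt+ was 1.65 on the log2 scale for 1416983_s_at, which left 31.9% of the wt+/mt+ signal (log2 difference -1.65 ± 0.274 SE, 95% confidence interval -2.24 to -1.06, limma adjusted p = 0.0041). The differences were -1.53 and -1.74 for the 2 other sets. Against wt-/mt+, 1416983_s_at differed by -1.47 (adjusted p = 0.00735), and without wt-/mt- replicate 2 this call and those of both other sets ended (adjusted p from 0.0774 to 0.129). Against wt+/mt- it differed by -1.89 (adjusted p = 0.00483), a call that ended without both wt+/mt- arrays of high actin difference (-1.605, adjusted p = 0.065). Without wt-/mt- replicate 2, the call against wt+/mt+ held for 1416983_s_at (-1.35, adjusted p = 0.0472) and ended for 1416981_at (-1.26, adjusted p = 0.0803) and 1416982_at (-1.32, adjusted p = 0.0695). Foxo1 RNA was still detected above the array median on all 3 wt-/mt- arrays. The position of the edits relative to the probes is not given in the sources used here, and the RNA signal does not check whether FOXO1 protein is lost.

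With 1 allele left, Foxo1 RNA was close to the level with both. For 1416983_s_at the difference was -0.18 (95% interval -0.479 to 0.124) in wt-/mt+ and 0.24 (-0.109 to 0.58) in wt+/mt-, each against wt+/mt+, and neither was called. Between the single-allele genotypes, wt-/mt+ over wt+/mt- was -0.41 (-0.77 to -0.057), also not called after adjustment. The interaction, which asks whether loss of both alleles differs from the sum of the single losses, was -1.71 ± 0.319 (SE) for this probe set (adjusted p = 0.0164) and passed for all 3 tested sets. Without wt-/mt- replicate 2, none of the 28 member probe sets passed the interaction test, against 4 with all arrays, where 2.54% of all tested probe sets passed. The count was 1 without wt-/mt- replicate 1, 2 without wt-/mt+ replicate 1, wt+/mt- replicate 1, wt+/mt+ replicate 1 or wt+/mt+ replicate 3, and 0 without both wt+/mt- arrays of high actin difference.

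**Figure D1:**
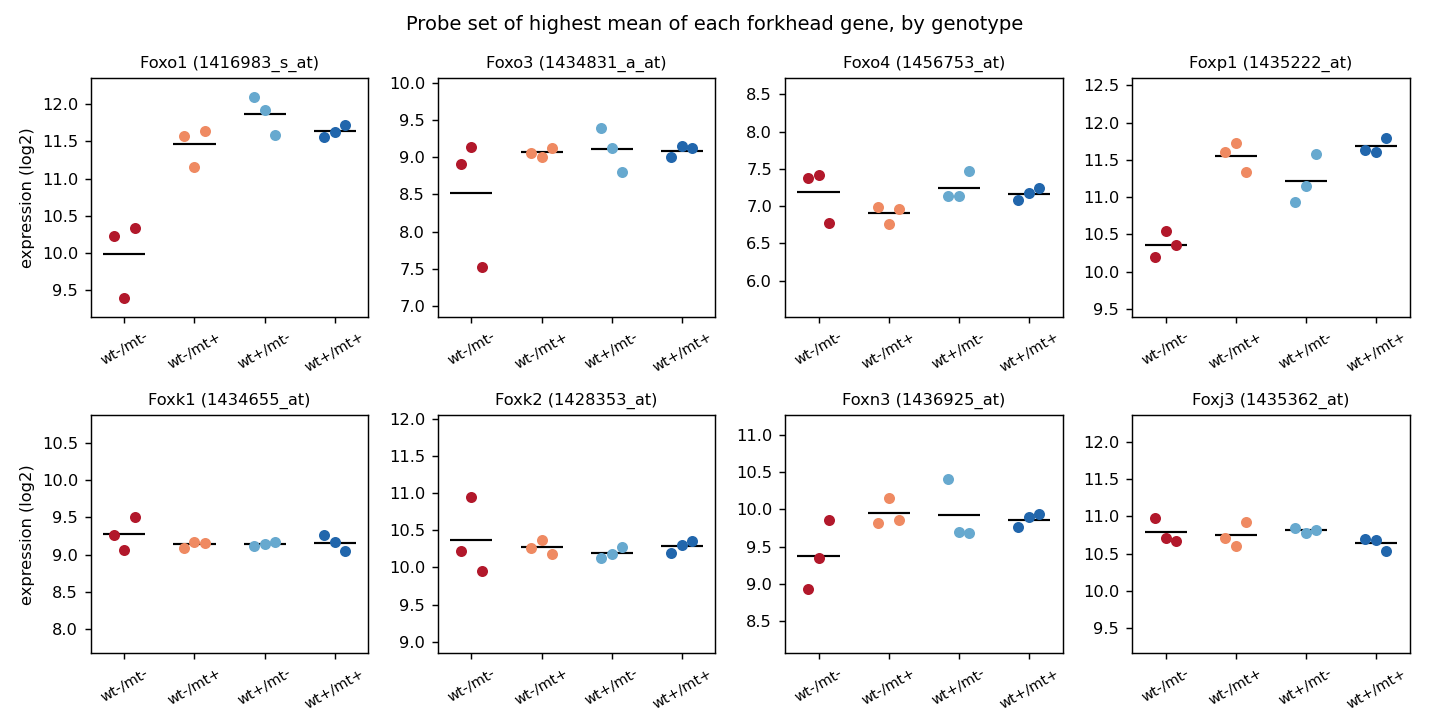
Log2 expression of the probe set of highest mean of each of the 8 forkhead genes on the 12 arrays, by genotype; points are arrays, lines are means of 3, and every panel spans the same number of log2 units. The wt-/mt- arrays of Foxo1 and Foxp1 lie below all other arrays, while those of the 6 other genes overlap the other genotypes.

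Foxp1 was the only other gene of the 8 with a called difference in wt-/mt- against wt+/mt+, and it was lower. All 8 of its probe sets passed the test. In 7 of them the differences ran from -1.54 to -1.08 (log2), that is 34.3% to 47.4% of the wt+/mt+ signal. The remaining set, 1443258_at, lay below the array median, the level of the filter, on all 3 wt-/mt- arrays and passed the filter only through the other genotypes. Its difference is therefore a bound, at least 1.83-fold lower in wt-/mt- (wt+/mt+ mean over the array median, adjusted p = 0.00732), with measured means of 6.09 in wt-/mt- and 7.10 in wt+/mt+. Over the 28 tested forkhead probe sets, 11 were called lower and 0 higher, where 5.47% of all tested probe sets were called lower and 2.62% higher. The 11 were the 3 of Foxo1 and the 8 of Foxp1, 1443258_at included. Unadjusted p was under 0.05 with a higher value in wt-/mt- for 3 forkhead probe sets, described below, a share near the 12.0% of all tested probe sets. The median difference was -0.46 over the 28, against 0.025 over all tested probe sets.

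The strongest Foxp1 call by adjusted p was that of 1435221_at. It read 9.01, 8.97 and 8.44 in wt-/mt-, 10.26, 10.15 and 10.20 in wt-/mt+, 10.09, 9.76 and 9.90 in wt+/mt-, and 10.34, 10.46 and 10.25 in wt+/mt+. Here wt-/mt- was lowest, wt+/mt- next, and wt-/mt+ overlapped wt+/mt+. Its difference in wt-/mt- against wt+/mt+ was -1.54 ± 0.183 (SE, adjusted p = 4.46e-04), and it was called under every alternative tried.

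The brightest Foxp1 probe set, 1435222_at, read 10.19, 10.55 and 10.35 in wt-/mt-, 11.60, 11.73 and 11.33 in wt-/mt+, 10.93, 11.14 and 11.57 in wt+/mt-, and 11.64, 11.61 and 11.80 in wt+/mt+. Here wt+/mt- overlapped wt-/mt+, and wt-/mt- lay below both. The difference in wt-/mt- against wt+/mt+ was -1.32 ± 0.25 (SE, adjusted p = 0.00773), and the call ended without wt-/mt- replicate 1 (-1.23, adjusted p = 0.0571). Probe set 1455242_at, from the same source sequence as these 2, read 10.36, 10.23 and 9.96 in wt-/mt-, 11.26, 11.19 and 11.12 in wt-/mt+, 10.90, 10.86 and 11.17 in wt+/mt-, and 11.34, 11.35 and 11.30 in wt+/mt+. Its wt-/mt- arrays were again the lowest of the 12.

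Another source sequence gave 3 further Foxp1 probe sets. Probe set 1421140_a_at read 9.55, 9.69 and 8.43 in wt-/mt-, 10.36, 10.43 and 10.23 in wt-/mt+, 10.32, 10.17 and 10.48 in wt+/mt-, and 10.29, 10.56 and 10.53 in wt+/mt+. It is the one Foxp1 set in which the 3 genotypes with Foxo1 stayed together and wt-/mt- replicate 3 fell far below replicates 1 and 2. Probe set 1421141_a_at read 8.68, 9.32 and 9.14 in wt-/mt-, 10.34, 10.43 and 10.06 in wt-/mt+, 9.84, 9.97 and 10.24 in wt+/mt-, and 10.56, 10.63 and 10.53 in wt+/mt+. Probe set 1421142_s_at read 8.41, 8.99 and 8.99 in wt-/mt-, 9.95, 10.12 and 9.66 in wt-/mt+, 9.65, 9.73 and 9.95 in wt+/mt-, and 10.05, 10.21 and 10.16 in wt+/mt+. In both of these, wt-/mt- was lowest with no overlap.

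The 2 dimmest Foxp1 probe sets came from other sequences. Probe set 1438802_at read 7.09, 6.11 and 7.01 in wt-/mt-, 7.39, 7.49 and 7.13 in wt-/mt+, 6.76, 7.20 and 7.28 in wt+/mt-, and 7.69, 7.81 and 7.95 in wt+/mt+. It was above the array median on 2 of the 3 wt-/mt- arrays. It is the single Foxp1 set in which wt-/mt- overlapped another genotype, wt+/mt-, and its call against wt+/mt+ (adjusted p = 0.0298) ended without wt-/mt- replicate 1 or 2 or wt+/mt+ replicate 2 or 3 (adjusted p from 0.0572 to 0.223). Probe set 1443258_at read 6.11, 6.16 and 6.00 in wt-/mt-, 6.92, 6.81 and 6.68 in wt-/mt+, 6.77, 6.73 and 6.56 in wt+/mt-, and 7.10, 6.93 and 7.26 in wt+/mt+. The order of the genotype means, wt-/mt- lowest, then wt+/mt-, wt-/mt+ and wt+/mt+, was the same in all 8 probe sets, which share cells, arrays and in part sequence. In this order both mt- means lie below both mt+ means, the direction in which bioC, bioD and cre split and opposite to lys. The part of these control splits in the Foxp1 values was not tested.

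**Figure D2:**
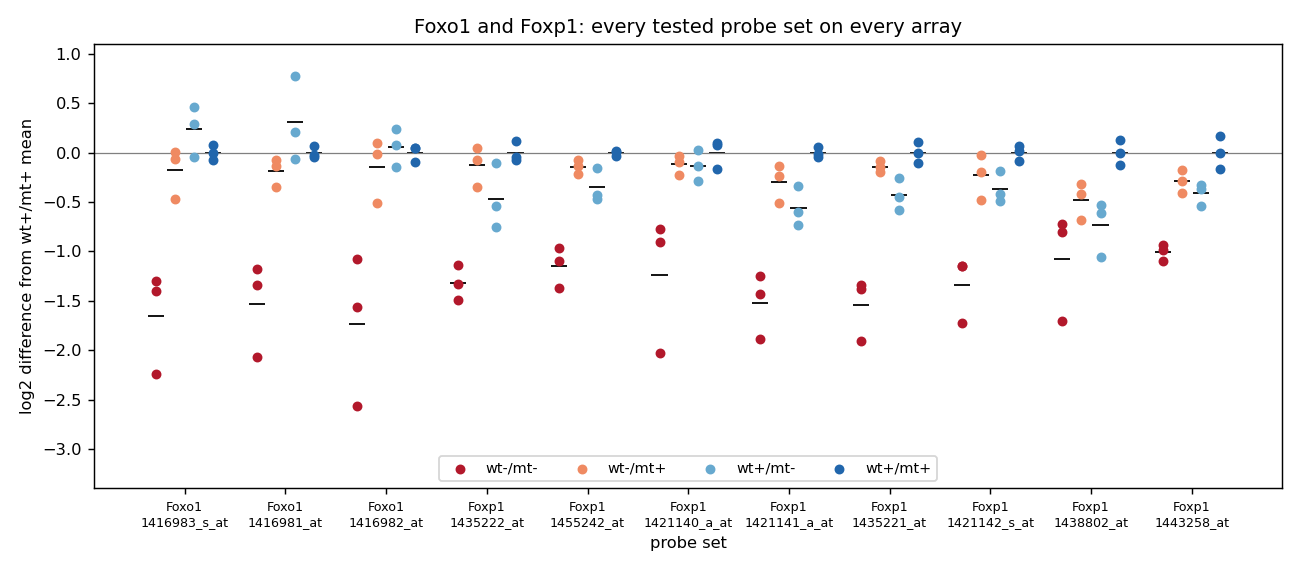
Every tested Foxo1 and Foxp1 probe set on each array, as the log2 difference from its wt+/mt+ mean; points are arrays, short lines are genotype means. Foxp1 means in wt-/mt- lie between -1.54 and -1.005, where 1443258_at, the set nearest 0, is below the array median, and its wt+/mt- means lie between those of wt-/mt- and wt-/mt+.

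Part of the Foxp1 probe sets also differed in wt-/mt- against each single-allele genotype. Against wt-/mt+, 7 of 8 Foxp1 probe sets and the 3 of Foxo1 were called lower, 10 of 28 in all, where 5.37% of all tested probe sets were. The 7 included 1443258_at, and the 6 others ran from -1.40 to -1.004. The call of 1443258_at (at least 1.5-fold lower, adjusted p = 0.0392) ended with median-centred arrays and when any of several single arrays was left out, and without wt-/mt- replicate 1 or replicate 2 only 5 of the 10 calls were made. Against wt+/mt-, 5 of 8 Foxp1 probe sets (-1.11 to -0.80) and the 3 of Foxo1 were called lower, 8 of 28, where 2.52% of all tested probe sets were. The brightest Foxp1 probe set, 1435222_at, was not called here (-0.855). It was called with a shared spread, with chromosome centring or with the actin difference as a covariate. The count of 8 became 3, 2 or 4 without wt-/mt- replicate 1, 2 or 3, 5 without wt+/mt- replicate 2, 5 without wt+/mt+ replicate 3, and 2 without both wt+/mt- arrays of high actin difference. These 3 comparisons share the wt-/mt- arrays.

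Where only the T24P allele was lost, Foxp1 was lower in part of the fits. In wt+/mt- against wt+/mt+, 5 of 8 Foxp1 probe sets were called lower (-0.73 to -0.35) and 1 Foxo4 probe set higher, which was below the array median on all 3 wt+/mt+ arrays, so 6 of 28 forkhead probe sets were called, where 7.08% of all tested probe sets were. None of the 6 was called when all genotypes shared 1 spread (adjusted p from 0.146 to 0.224) or when both wt+/mt- arrays of high actin difference were left out, where the 5 Foxp1 differences were -0.538 to -0.155. The count was 1 without wt+/mt- replicate 1, 0 without wt+/mt- replicate 2, wt+/mt+ replicate 2 or wt+/mt+ replicate 3, and 2 with the actin difference as a covariate. In wt-/mt+ against wt+/mt+, 0 forkhead probe sets were called by limma, where 0.109% of all tested probe sets were. Unadjusted p was under 0.05 for 4 of 28, all lower in wt-/mt+ (3 of Foxp1, 1 of Foxo4). Of all tested probe sets, 13.6% had such a p in either direction, and 4.83% had it with a lower value in wt-/mt+. The largest of the 4 was Foxp1 1438802_at, at -0.48 (95% interval -0.772 to -0.178). With a shared spread, 0 probe sets of any gene were called in this comparison.

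Foxp1 lies on chromosome 6. Relative to wt+/mt+, the median of the other tested probe sets of chromosome 6 was 0.047, 0.302 and 0.212 on wt-/mt- replicates 1, 2 and 3, opposite in sign to Foxp1. After each array was centred by chromosome, all 8 Foxp1 probe sets were still called lower in wt-/mt- against wt+/mt+. For Foxo1, on chromosome 3, the chromosome medians were 0.087, 0.025 and -0.22.

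**Figure D3:**
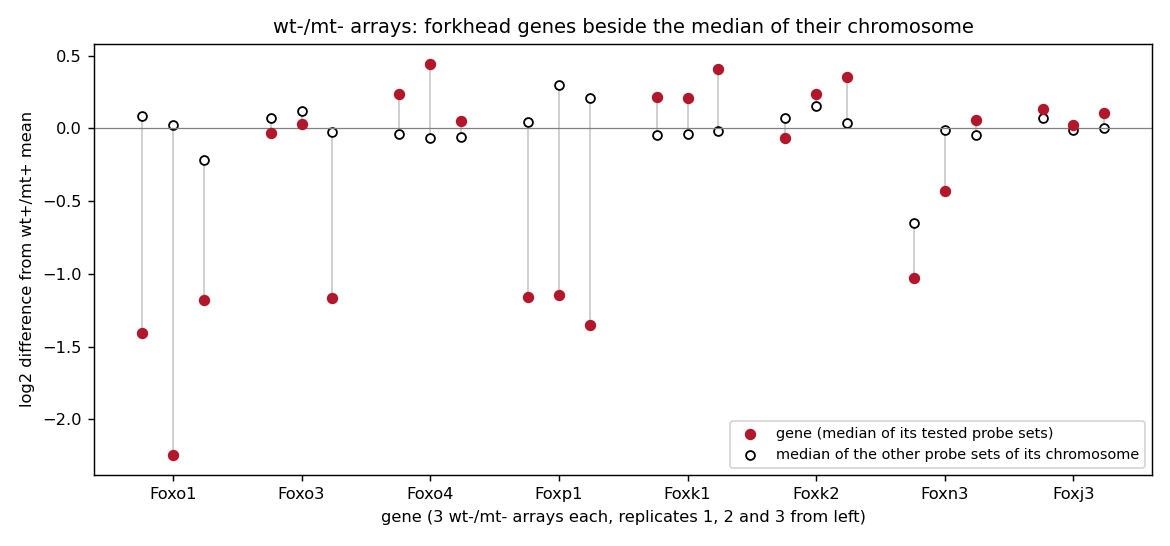
Deviation from the wt+/mt+ mean (log2) on the 3 wt-/mt- arrays, for each forkhead gene (red, median of its tested probe sets) and for the median of the other tested probe sets of its chromosome (open). The largest chromosome shift shown is -0.648, on chromosome 12 in replicate 1, where Foxn3 stood at -1.03; chromosome 6 lies above 0 while Foxp1 lies below -1.1 on all 3 arrays.

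The other FOXO paralogs did not pass the test in wt-/mt-. Foxo3 1434831_a_at read 8.91, 9.14 and 7.52 in wt-/mt-, 9.06, 9.01 and 9.13 in wt-/mt+, 9.40, 9.13 and 8.80 in wt+/mt-, and 9.00, 9.15 and 9.12 in wt+/mt+. One array, wt-/mt- replicate 3, was low and the other 2 were at the level of wt+/mt+. The difference in wt-/mt- against wt+/mt+ was -0.57 (95% interval -1.20 to 0.073, adjusted p = 0.253) and -0.06 without replicate 3. The second Foxo3 probe set, 1434832_at, differed by -0.21 (-0.722 to 0.299), and by 0.06 without replicate 3. Chromosome 10, which holds Foxo3, had a median of -0.025 on that array.

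Foxo4, the X-linked paralog, gave 2 probe sets that did not move alike. Foxo4 1456753_at read 7.38, 7.42 and 6.77 in wt-/mt-, 6.99, 6.76 and 6.96 in wt-/mt+, 7.14, 7.14 and 7.47 in wt+/mt-, and 7.08, 7.17 and 7.25 in wt+/mt+. Its wt-/mt- arrays spanned the other genotypes (difference 0.03 against wt+/mt+, 95% interval -0.409 to 0.461). The dimmer 1422149_at read 6.31, 6.69 and 6.55 in wt-/mt-, 6.15, 6.11 and 6.26 in wt-/mt+, 6.73, 6.41 and 6.38 in wt+/mt-, and 6.04, 6.15 and 5.98 in wt+/mt+. Here both mt- genotypes lay above both mt+ genotypes with no overlap, as did 4.65% of all tested probe sets. The hybridization controls bioC, bioD and cre split the same arrays in the other direction, and the control lys split them in the same direction. The part of these control splits in the Foxo4 values was not tested. All 3 wt+/mt+ arrays and 2 of the 3 wt-/mt+ arrays were below the array median, so the set passed the filter through the mt- genotypes. Against that level it was at least 1.29-fold higher in wt-/mt- than in wt+/mt+ (means 6.52 in wt-/mt- and 6.06 in wt+/mt+, adjusted p = 0.126), not called, and at least 1.28-fold higher in wt+/mt- (mean 6.51, adjusted p = 0.0271), the Foxo4 call described above.

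Foxk1 and Foxk2 did not pass the test in any of the 7 comparisons. Foxk1 1434655_at read 9.27, 9.06 and 9.50 in wt-/mt-, 9.08, 9.17 and 9.16 in wt-/mt+, 9.11, 9.14 and 9.17 in wt+/mt-, and 9.26, 9.17 and 9.05 in wt+/mt+. The groups overlapped (0.12 in wt-/mt- against wt+/mt+, 95% interval -0.211 to 0.45). Foxk2 1428353_at read 10.22, 10.94 and 9.95 in wt-/mt-, 10.26, 10.37 and 10.19 in wt-/mt+, 10.13, 10.19 and 10.27 in wt+/mt-, and 10.20, 10.30 and 10.36 in wt+/mt+. The wt-/mt- arrays again spanned the rest (0.08, -0.339 to 0.507). The 2 other Foxk2 probe sets of that source sequence differed by 0.04 and 0.09.

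In the dimmer probe sets of these genes, wt-/mt- was above wt+/mt+ without overlap, as in 19.8% of all tested probe sets. The differences were 0.43 for Foxk1 1451752_at (95% interval 0.051 to 0.816, adjusted p = 0.148), 0.44 for Foxk2 1442933_at (0.097 to 0.79, adjusted p = 0.108) and 0.47 for Foxk2 1440689_at (-0.031 to 0.964, adjusted p = 0.225). With a shared spread, these 3 and Foxo4 1422149_at were called higher (adjusted p from 0.0197 to 0.0409), where 10.2% of all tested probe sets were called higher. On the wt+/mt+ arrays, Foxk1 1451752_at was above the array median on 2 of 3. The brighter probe sets of the same 3 genes were not called under either spread (adjusted p of 0.488 or more with a shared spread). The intervals of the brighter sets reach 0.461 for Foxo4, 0.45 for Foxk1 and 0.522 for Foxk2, so the upper bounds allow a rise of that size. In the simulations described below, the fit recovered 4.0% or 14.0% of changes of 0.5 in wt-/mt- over wt+/mt+, by the spread simulated. A missing call at such a size therefore says little.

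Foxn3, a forkhead repressor known as a checkpoint suppressor, was lower on part of the wt-/mt- arrays. Foxn3 1436925_at read 8.93, 9.35 and 9.85 in wt-/mt-, 9.82, 10.15 and 9.86 in wt-/mt+, 10.40, 9.69 and 9.68 in wt+/mt-, and 9.76, 9.89 and 9.94 in wt+/mt+. Replicate 1 was lowest and replicate 3 was at the level of wt+/mt+. The difference in wt-/mt- against wt+/mt+ was -0.49 (95% interval -1.12 to 0.146, adjusted p = 0.318), -0.55 and -0.43 for 2 further sets, none called. The other probe sets of chromosome 12 had a median of -0.648 on wt-/mt- replicate 1, against -0.01 and -0.048 on replicates 2 and 3, and centring by chromosome moved the first difference to -0.17. How far the chromosome shift accounts for the Foxn3 values was not tested further.

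The remaining Foxn3 probe set, 1453094_at, read 7.66, 7.33 and 7.55 in wt-/mt-, 7.37, 7.37 and 7.22 in wt-/mt+, 7.90, 7.77 and 7.60 in wt+/mt-, and 7.34, 7.50 and 7.46 in wt+/mt+. The 3 wt+/mt- arrays lay above the 3 of wt-/mt+. It was the 1 forkhead probe set of 28 called in wt-/mt+ against wt+/mt- (-0.44 ± 0.10 SE, adjusted p = 0.0279), where 6.42% of all tested probe sets were called. The call ended with a shared spread (adjusted p = 0.134), with the actin difference as a covariate, and without any 1 of the wt-/mt+ arrays or wt+/mt- replicate 1 or 2. Without wt+/mt- replicate 3, 7 forkhead probe sets were called in this comparison, where 14.9% of all tested probe sets were.

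Foxj3, known for its role in meiosis of spermatocytes, did not pass any test. Foxj3 1435362_at read 10.98, 10.71 and 10.68 in wt-/mt-, 10.71, 10.60 and 10.92 in wt-/mt+, 10.84, 10.78 and 10.82 in wt+/mt-, and 10.69, 10.68 and 10.54 in wt+/mt+. The groups overlapped (0.15 in wt-/mt- against wt+/mt+, 95% interval -0.218 to 0.527), and the second tested set differed by 0.02.

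**Figure D4:**
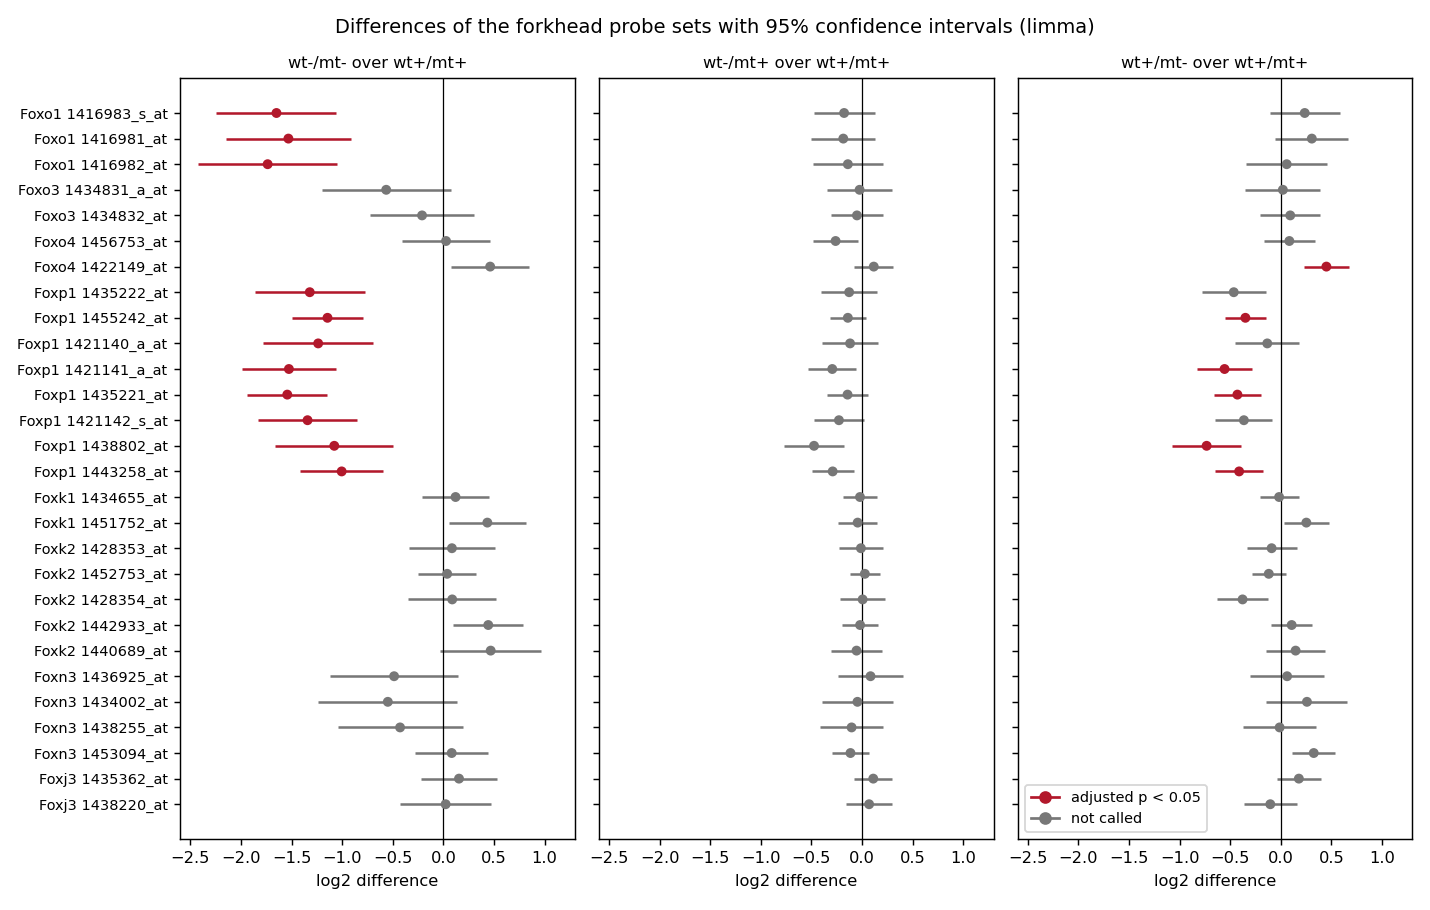
Log2 differences of the 28 tested forkhead probe sets with 95% confidence intervals (limma) for 3 comparisons that share the wt+/mt+ arrays; red, called. In wt-/mt- the Foxo1 and Foxp1 probe sets are the 11 called, all below 0; none is called in wt-/mt+, and 6 are in wt+/mt-, 5 of Foxp1 and 1 of Foxo4. Foxp1 1443258_at in wt-/mt- and Foxo4 1422149_at in wt+/mt+ are below the array median, so their plotted differences from those groups rest on values under the filter level.

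Among 29 other forkhead genes on the array, 12 passed the filter. Foxm1, which drives transcription of mitotic genes, was 0.90 ± 0.24 (SE) higher in wt-/mt- than in wt+/mt+ (adjusted p = 0.0401), the 1 call of the 12. It was not called in wt-/mt- against wt-/mt+ (0.60, adjusted p = 0.156) or against wt+/mt- (0.58, adjusted p = 0.243). For genes with 1 probe set each, 3.06% of 11456 were called higher and 5.05% lower. Foxp2 and Foxp4, the other FOXP genes tested, differed by -0.18 and -0.01.

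In wt-/mt- against wt+/mt+, part of the genes that FOXO proteins are known to regulate were lower. Of 38 tested members of a list of canonical FOXO targets, 13 were called lower and 0 higher (5.05% and 3.06% of all genes). The list was chosen with earlier results of these data known, so its shares here and below are a description and not an independent test. The median of the 38 was -0.53, against 0.051 over all tested genes. Bach2, a repressor of plasma cell fate, was 4.41 lower (-4.41 ± 0.378 SE, adjusted p = 5.48e-05). Cxcr4, the dark zone homing receptor, differed by -3.69, Pik3ip1, an inhibitor of PI3K, by -3.36, and Trp53inp1, a p53-induced autophagy and apoptosis factor, by -2.78. Bach2, Cxcr4, Pik3ip1 and Trp53inp1 led the list by size also against wt-/mt+, where 13 of 38 were lower and 0 higher (5.39% and 2.85% of all genes), and against wt+/mt-, where 7 of 38 were lower and 0 higher (2.68% and 0.873%). In wt+/mt- against wt+/mt+, 4 of 38 were lower and 1 higher (2.01% and 4.84% of all genes), and in wt-/mt+ against wt+/mt- 5 were higher and 2 lower (2.55% and 3.94%). No call of these 2 comparisons held with a shared spread (adjusted p of 0.101 or more). In wt-/mt+ against wt+/mt+, 0 were called, where 0.0611% of all genes were called lower and 0.0524% higher.

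Of 39 tested genes that control FOXO activity, 3 were called in wt-/mt- against wt+/mt+, a share near the 8.10% of all genes. Pik3ip1 and Rictor, a subunit of the mTORC2 complex that phosphorylates AKT, were lower (Rictor, -0.59), and Ywhae, a 14-3-3 protein, was 1.31 higher (adjusted p = 0.00674). Pik3ip1 and Rictor are also in the list of FOXO targets. Of 17 tested partner genes of FOXK and FOXP factors, 1 was called in that comparison, likewise near the background, Asxl2, a subunit of the BAP1 deubiquitinase complex, at -0.78. Pik3cd, the PI3K catalytic subunit of leukocytes, differed by -0.69 in wt+/mt- against wt+/mt+ (adjusted p = 0.00979), and the call ended with a shared spread (adjusted p = 0.0645).

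The pattern of Foxo1 1416983_s_at over the 12 arrays was most like that of Mef2a (Pearson r = 0.959), Chrnb1 (0.956), Siae (0.956), Atp6ap1 (0.95) and Eqtn (0.95), among 11455 genes with 1 probe set each. It was least like Lrrc40 (-0.974), H2bc22 (-0.96), Txn1 (-0.959), Suclg1 (-0.953) and Uqcr11 (-0.95). Mef2a, a MADS-box factor, averaged 10.22 on the wt-/mt- arrays, 11.02 on the wt-/mt+ arrays, 11.03 on the wt+/mt- arrays and 10.98 on the wt+/mt+ arrays, so wt-/mt- stood apart from the 3 other genotypes. Of the forkhead genes, Foxp1 was closest (r = 0.702, rank 855), followed by Foxn3 (0.651) and Foxo3 (0.403). Foxj3 (-0.047), Foxo4 (-0.177), Foxk1 (-0.308) and Foxk2 (-0.515) were below 0. All points share the same 12 arrays, and the values are a description.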

How the data were processed

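RNA of 12 samples was measured on Affymetrix arrays after 3' IVT labelling, per the labels' protocols. Each deposited value is a log2 expression level of 1 probe set. The submitters' processing notes name RMA, without a version, as the authors' method. RMA subtracts background, brings the arrays to 1 distribution and combines the probes of a set, which largely removes a shift that most genes share. The base of the logarithm was read from the range, 3.09 to 15.57. Scanner files were not used here. Array medians lay between 6.08 and 6.25, and the number of arrays limits the precision.

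Genes were named by GEO's platform annotation, which may be old: of 45101 probe sets, 34958 have 1 gene, 932 several and 9211 none here. Chromosomes and promoters come from RefSeq tables of GRCm38.p6. Control probe sets were dropped, and 23752 probe sets above the array median on at least 3 arrays went into the fit, made in R 4.3.3 with limma 3.58.1 (1 mean per genotype, 12 arrays, 1 weight per genotype, eBayes). A probe set was called where p, adjusted by Benjamini-Hochberg over all 23752, was under 0.05. The weights were 0.27 (wt-/mt-), 1.688 (wt-/mt+), 1.082 (wt+/mt-) and 2.028 (wt+/mt+). Named genes were all 8 forkhead genes and up to 4 called genes per list and comparison, by size. The members, lists and tests were chosen with earlier results of these data known. The labels give no number that pairs arrays across genotypes.

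The fit was tested on simulated data for wt-/mt- over wt+/mt+, with 200 of 23752 probe sets changed. With spreads in proportion per genotype, 116 changed and 5 unchanged probe sets were called. Recovery was 4.0% at a change of 0.5, 42.0% at a change of 1 and 93.0% at a change of 2 (log2). With each probe set's own observed spread in each genotype, 134 changed and 100 unchanged were called, so calls may be liberal where a probe set's spread departs from its genotype's. Recovery at a change of 0.5 was then 14.0%. A shared spread called 96 and 299 unchanged probe sets in these simulations.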

Additional observations from a re-analysis of the deposited data

Results flagged for a closer look

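Loss of the wild-type allele had a different effect on Foxo1 RNA without the T24P allele than with it, by the interaction term of the limma fit. The difference of effects was -1.707 (adjusted p = 0.0164) for 1416983_s_at, -1.651 (adjusted p = 0.0237) for 1416981_at and -1.654 (adjusted p = 0.0361) for 1416982_at, on the log2 scale. For Foxp1 1435221_at it was -0.969 (adjusted p = 0.0344). None of the 4 held without wt-/mt- replicate 2 or without both wt+/mt- arrays of high actin difference. The call of 1416981_at also ended with chromosome centring (adjusted p = 0.0617) and without wt-/mt- replicate 1 (adjusted p = 0.0674). Those of 1416982_at and Foxp1 1435221_at also ended when most other single arrays were left out and with the actin difference as a covariate. That of 1416982_at ended with a shared spread (adjusted p = 0.0721) and with chromosome centring (adjusted p = 0.0942), and that of Foxp1 1435221_at with median-centred arrays (adjusted p = 0.0515). The other 7 Foxp1 probe sets did not pass the interaction test, with differences of effects from -0.98 to 0.13.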

How the results depend on the processing

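No called value changed sign under any alternative, and the precision is set by 3 arrays per genotype and by the wide spread of wt-/mt-. Counts below are of all called probe sets, then of called forkhead probe sets where that count moved by over 1.5 times. With a shared spread, 4990 were called in wt-/mt- over wt+/mt+, 4494 over wt-/mt+ and 3024 over wt+/mt-, 0 in wt-/mt+ over wt+/mt+, 67 (forkhead 0) in wt+/mt- over wt+/mt+ and 15 (0) in wt-/mt+ over wt+/mt-. With no filter, the counts were 3349, 3013 and 1295 for the 3 wt-/mt- comparisons, 11 for wt-/mt+ over wt+/mt+, and 3 forkhead probe sets for wt+/mt- over wt+/mt+. With 1 probe set per gene, which tests fewer features, they were 866 (2), 923 (2) and 399 (1) for wt-/mt- comparisons, 950 (0) for wt+/mt- over wt+/mt+, 835 (0) for wt-/mt+ over wt+/mt- and 360 (1) for the interaction. Chromosome centring gave 3 forkhead calls in wt-/mt+ over wt+/mt- and 2 in the interaction. The actin difference as a covariate gave 475 for wt-/mt- over wt+/mt-, 983 (2) for wt+/mt- over wt+/mt+ and 240 (0) for wt-/mt+ over wt+/mt-. Without both wt+/mt- arrays of high actin difference, an alternative chosen after seeing the data that assumes the lone array varies as the 3 did, the counts were 162 (2) for wt-/mt- over wt+/mt-, 54 for wt-/mt+ over wt+/mt+, 21 (0) for wt+/mt- over wt+/mt+, 12 (0) for wt-/mt+ over wt+/mt- and 162 (0) for the interaction. Leaving out 1 array at a time gave 725 to 2264 (forkhead 8 to 11) in wt-/mt- over wt+/mt+, 823 to 1818 (5 to 10) over wt-/mt+, 342 to 1605 (2 to 8) over wt+/mt-, 6 to 51 (0 to 0) in wt-/mt+ over wt+/mt+, 23 to 2643 (0 to 8) in wt+/mt- over wt+/mt+, 12 to 3549 (0 to 7) in wt-/mt+ over wt+/mt- and 278 to 738 (0 to 4) in the interaction. Without wt+/mt- replicate 3, the array with an actin difference near the others, counts in all comparisons of wt+/mt- rose. Quantile and median centring left every count within 1.5 times. Lists were not recomputed for arrays left out. No paired analysis was possible because the genotypes share no replicate numbers. The cause of these shifts was not tested where the alternative's construction does not show it.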
